A study of Mus musculus with 6 samples.

Results

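The RNAs of 10 surface proteins through which B cells and helper T cells signal to each other were examined in lung B cells of control mice and of mice with severe allergic airway inflammation: Cd40, Cd86, Icosl, Tnfsf4, Tnfsf9, Cd70, Cd83, Cd274, Cd69 and Cd44. The genes were chosen by name, and all 10 of 10 were found among the 21774 genes of the deposited mRNA table. Each gene is represented by its transcript with the highest mean over the 6 libraries. Strictly, 6 of them encode costimulatory or coinhibitory ligands: Cd86, Icosl and Cd274 of the B7 family and Tnfsf4, Tnfsf9 and Cd70 of the tumour necrosis factor (TNF) family. Cd40 is a receptor, and Cd83, Cd69 and Cd44 are surface proteins of activation and adhesion.

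The cells were taken from dissociated lung of wild-type mice with microbeads against B220, an isoform of the phosphatase CD45 that marks B cells but that plasmacytoid dendritic cells of the mouse carry too. Severe asthma was induced through the trachea. On days 0 to 2 the mice were given LPS (lipopolysaccharide, 10 μg) with HDM (house dust mite extract, 25 μg) in a volume of 35 μl, and on days 7 to 14 HDM without LPS. Control mice were given phosphate-buffered saline only. There were 3 libraries per group, and the labels give neither strain nor age and do not say whether a library is 1 animal, so p-values measure the spread between these libraries, which may be technical.

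A T cell that recognises antigen on a B cell needs further signals through paired surface proteins. CD86 engages CD28 and CTLA-4 on the T cell, ICOSL engages ICOS, and the TNF-family ligands OX40L (Tnfsf4), 4-1BBL (Tnfsf9) and CD70 engage OX40, 4-1BB and CD27. In return, CD40 ligand on the T cell engages CD40 on the B cell, a signal needed for germinal centres, while PD-L1 (Cd274) engages the inhibitory receptor PD-1. CD83, CD69 and CD44 are familiar flow cytometry markers of activated lymphocytes.

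The libraries held 16498219 to 18054903 reads over mRNA genes. All 13 of 13 B cell markers, Ms4a1 and Cd79a among them, were present, and their summed value was 168137 to 236498 in control and 232184 to 252341 in severe asthma. Control 1 stood apart: it had the lowest B cell sum (168137, against 236498 and 218043 in controls 2 and 3) and the highest sums of endothelial (39427, against 14638 and 17922), epithelial and fibroblast markers. Macrophage and monocyte markers were higher in severe asthma (13377 to 32239 in control, 108911 to 220486 in severe asthma, 8 of 14 risen and 0 fallen), as were those of germinal centre B cells (1583 to 1770.4 against 5640.5 to 6828) and plasma cells (3864 to 3987 against 11064 to 16080.2). Those of plasmacytoid dendritic cells were higher too (1351 to 1388 against 2204 to 2802, 3 of 6 risen and 0 fallen), with Siglech, their defining surface lectin, rising from 619 ± 24.8 to 1149 ± 179. All 10 of 10 cell cycle genes rose, the median being 3.14 on the log2 scale. Markers of conventional dendritic cells were mixed, with 3 of 7 risen and 2 fallen and a higher sum (493 to 846 in control, 915 to 1045 in severe asthma). Markers of endothelium, epithelium and fibroblasts were lower. Each gene is given below on the deposited scale and, as a second scale, relative to B cell genes. The first uses the deposited library-size-adjusted read counts, and the second subtracts the mean log2 value of the 13 B cell markers of the same library. Of these 13, 3 rose on the deposited scale (Cd79a, Cd22 and Cd72) and 0 fell, so the reference is not constant between the groups.

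**Figure D1:**
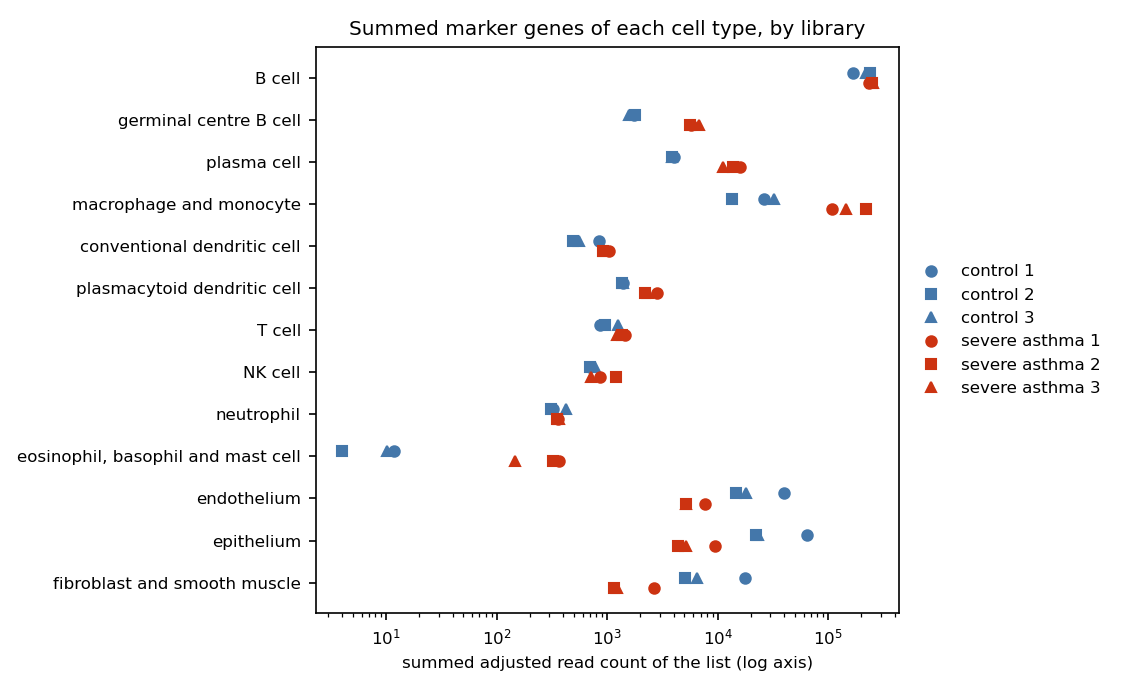
Summed adjusted read counts of each fixed marker list (log axis) in the 6 libraries, with circles, squares and triangles for libraries 1, 2 and 3 of control (blue) and severe asthma (red). Macrophage sums lie at 108911 to 220486 in severe asthma and 13377 to 32239 in control, and control 1 has the highest endothelial, epithelial and fibroblast sums.

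Cd40, Icosl, Tnfsf4 and Cd44 rose in severe asthma and Cd274 fell, which is 4 and 1 of the 10 genes (adjusted p from limma on log2(value + 1), with Benjamini-Hochberg adjustment over 15759 genes and a threshold of 0.05). The other genes, Cd86, Tnfsf9, Cd70, Cd83 and Cd69, did not pass. Tnfsf4 and Cd70 met the minimum mean value through the severe asthma libraries alone, and of the other 8 genes 3 rose and 1 fell. Over all genes tested 20.7% rose and 14.4% fell. The groups did not overlap for 5 of the 10, Tnfsf4 and Cd70 included, against 53.3% of all genes, and either call was made for 5 of 10, against 35.1%. A count of 5 in 10 is near the share of all genes that did not overlap. Across the 10 genes the log2 fold changes had a median of 0.33, and across all genes of 0.063. The median of the 10 includes Tnfsf4 (2.18) and Cd70 (1.56), whose entry through severe asthma alone raises it. The other 8 ran from -0.40 (Cd274) to 0.81 (Tnfsf9). With the replicate number as a block 4 of the 10 rose and 0 fell, 2 at an unadjusted p under 0.05, where 39.6% of all genes passed in either direction. With limma relative to B cell genes, 0 of the 10 rose and 1 fell, Cd274 (3 and 3 at an unadjusted p under 0.05), against 5.74% and 10.6% of all genes, and the median of all genes moved to -0.14, with 16.4% called in either direction. Macrophage, germinal centre, plasma cell and plasmacytoid dendritic cell markers were higher, and endothelial, epithelial and fibroblast markers lower, in the same severe asthma libraries, and their part in the changes of the 10 genes was not tested.

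**Figure D2:**
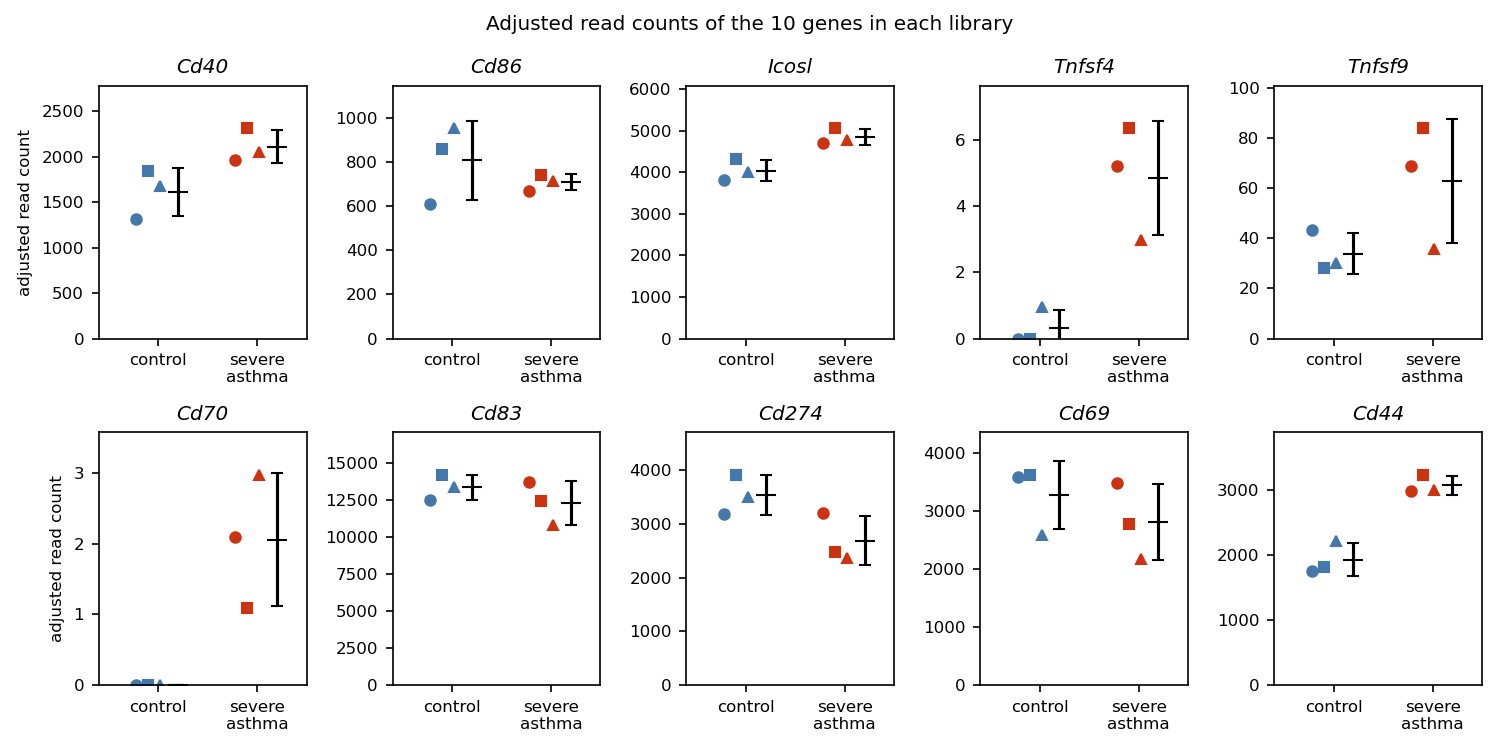
Adjusted read count of each gene (linear axes from 0) in the 3 control (blue) and 3 severe asthma (red) libraries, with circles, squares and triangles for libraries 1, 2 and 3 and black bars for the mean ± SD (a lower bar under 0 is not drawn). The groups do not overlap for Cd40, Icosl, Tnfsf4, Cd70 and Cd44.

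**Figure D3:**
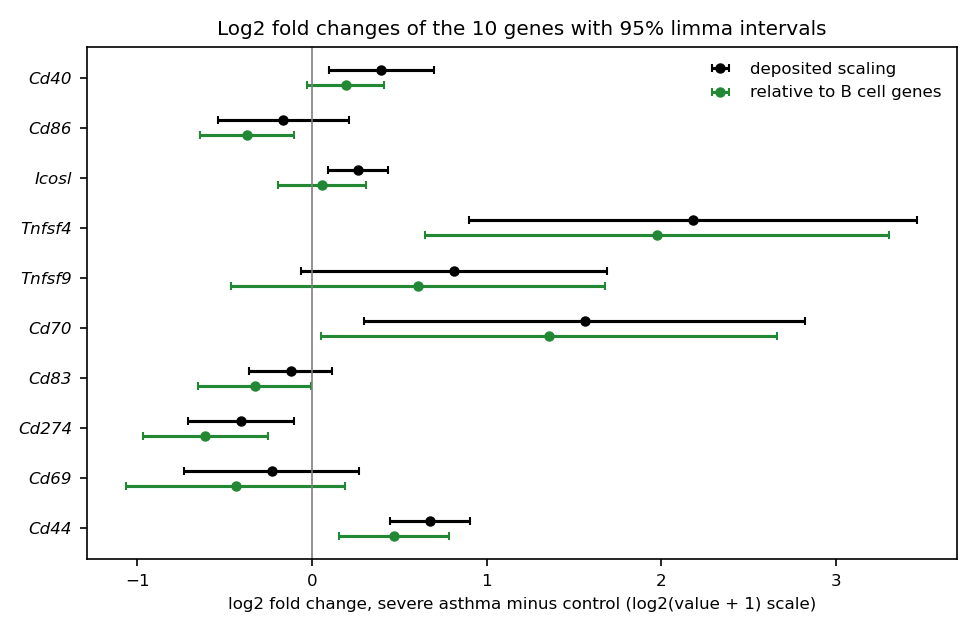
Log2 fold change of each gene, severe asthma minus control, with its 95% interval from limma, on the deposited scale (black) and relative to B cell genes (green). Cd44 lies at 0.68 and 0.47, and Cd274 at -0.40 and -0.61.

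Levels were compared between genes as adjusted read counts per kilobase of the most abundant transcript with a length in GENCODE. In control libraries Cd83 was the most abundant (5393 ± 347, SD, n = 3), followed by Cd69 (1796 ± 337), Icosl (1435 ± 90.4) and Cd274 (972 ± 101). Cd40 (531 ± 88.1), Cd44 (345 ± 45.5) and Cd86 (319 ± 70.5) came next, Tnfsf9 was far lower (26.3 ± 6.39), and Tnfsf4 (0.170 ± 0.294) and Cd70 (0 in all 3 libraries) were at the limit of detection. The neighbours Cd69 and Icosl, Cd44 and Cd86, and Tnfsf4 and Cd70 overlapped. In severe asthma Icosl (1721 ± 67.6) and Cd69 (1538 ± 369) overlapped again, Cd40 (692 ± 63.5) overlapped with Cd274 (736 ± 125), and Cd44 (549 ± 25.4) no longer overlapped with Cd86 (279.5 ± 14.0).

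Cd40, the receptor through which B cells receive T cell help (mm10 chromosome 2, 165055614 to 165071654, plus strand), held 1316, 1841 and 1677 in controls 1 to 3 and 1959.9, 2314 and 2052 in severe asthma 1 to 3. The lowest severe asthma library lay above the highest control, as for 31.6% of all genes, and control 1 was the lowest. Its mean ± SD over 3 libraries rose from 1611 ± 269 to 2108 ± 183 (log2 fold change 0.40 with an SE of 0.129, adjusted p = 0.0468). In bulk RNA more cells that carry a transcript and more transcript per cell cannot be told apart. Relative to B cell genes the controls lay together, at -3.10 to -3.08 on the log2 scale, severe asthma at -2.98 to -2.78, and the difference was 0.19 (95% interval -0.028 to 0.41, adjusted p = 0.197). The call on the deposited scale was lost without control 3 (adjusted p = 0.0817) and without severe asthma 1 (0.0666), 2 (0.161) or 3 (0.114), and with each of the count-based tests (limma-voom, edgeR and DESeq2, 0.0646 to 0.0915). In total the Cd40 call was lost in 12 of 20 alternatives. The 8 mRNA transcripts of Cd40 in the table changed by 0.38 to 0.42 on the log2 scale, and its non-coding transcript by 0.36 in its own table.

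Downstream of CD40, TRAF adaptors and the kinases NIK and IKK release NF-κB. Of 20 genes of this pathway, 3 rose and 3 fell, with a median log2 fold change of 0.065, against 0.063 for all genes. Traf1, an adaptor that is itself an NF-κB target, had the smallest p. It held 587, 598 and 638 in control and 1032, 1072 and 1033 in severe asthma, with no overlap (log2 fold change 0.78, adjusted p = 0.000581). Traf1 was also higher relative to B cell genes (0.58, adjusted p = 0.0295). Rel, the c-Rel subunit of NF-κB, went the other way, from 10813, 13115 and 12058 to 6697, 6088 and 5628 (log2 fold change -0.97, adjusted p = 0.000873). Relative to B cell genes it was -1.17 on the log2 scale (adjusted p = 0.00263). Ikbkb, the kinase IKKβ, fell as well (5592 ± 347 to 4601 ± 122, log2 fold change -0.28), and Tnip1, an inhibitor of NF-κB, rose (1496 ± 70.0 to 1802 ± 50.3, 0.27). Neither passed once control 3 or a single severe asthma library was left out (0.0681 to 0.0732 for Ikbkb and 0.0627 to 0.0685 for Tnip1), whereas Traf1 and Rel kept theirs without each library in turn. The 2 most abundant genes that did not pass were Nfkb2 (log2 fold change 0.11) and Tnfaip3 (-0.073), the A20 feedback inhibitor.

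Icosl, the ligand of ICOS and needed for follicular helper T cells (mm10 chromosome 10, 78069368 to 78079525, plus strand), held 3803, 4308 and 4003 in control and 4703, 5059 and 4765 in severe asthma. The groups did not overlap, but the change was small, from 4038 ± 254 to 4842 ± 190.1 as mean ± SD over 3 libraries (log2 fold change 0.26 with an SE of 0.0738, adjusted p = 0.0278). Relative to B cell genes the groups overlapped and the difference was 0.058 (interval -0.20 to 0.31, adjusted p = 0.749). Scaling by total reads alone also left no call (0.12, adjusted p = 0.204), nor did leaving out control 3 (0.0822) or severe asthma 1 (0.0578), 2 (0.106) or 3 (0.0846). Across the alternatives the Icosl call was lost in 9 of 20. The receptor Icos, a T cell gene, held 24.5, 32.0 and 50.8 in control and 18.8, 16.0 and 16.9 in severe asthma (log2 fold change -0.95, adjusted p = 0.0743).

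Cd86, the inducible ligand of CD28 and CTLA-4 (mm10 chromosome 16, 36568956 to 36666158, minus strand), held 609, 862 and 955 in control and 672, 742 and 715 in severe asthma. The severe asthma libraries lay close together between control 1 and controls 2 and 3, and no difference passed (log2 fold change -0.16 with an SE of 0.160, adjusted p = 0.46, interval -0.54 to 0.21). The value depended on which control was left out. Without control 3 it was -0.032 (adjusted p = 0.897) and without control 2 -0.11 (0.692). Without control 1 Cd86 was lower in severe asthma (-0.36, adjusted p = 0.00898), and without both libraries numbered 1 as well (-0.32, adjusted p = 0.0122). Relative to B cell genes, with all 6 libraries, the groups did not overlap and the difference was -0.37 (interval -0.64 to -0.10, adjusted p = 0.0672), where 42.3% of all genes did not overlap on that scale. The 3 mRNA transcripts of Cd86 differed by -0.18 to -0.15, and its 2 non-coding transcripts by -0.11 and -0.072. Cd80, the other ligand of CD28, which was singled out after its values were seen, held 48.3 ± 12.5 and 76.1 ± 10.9 (SD, n = 3) in control and severe asthma and did not pass (log2 fold change 0.66, adjusted p = 0.0907).

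Cd274, encoding the PD-1 ligand PD-L1 (mm10 chromosome 19, 29362107 to 29388095, plus strand), was the only one of the 10 genes to fall in the fit over all 6 libraries. It held 3182, 3919.9 and 3509 in control and 3210.4, 2476 and 2372 in severe asthma. Severe asthma 2 and 3 lay below every control, while severe asthma 1 lay just above control 1, so the groups overlapped. As mean ± SD over 3 libraries, control stood at 3537 ± 369.5 and severe asthma at 2686 ± 457 (log2 fold change -0.40 with an SE of 0.130, adjusted p = 0.0449). Relative to B cell genes the groups were apart, at -1.81, -2.00 and -2.03 in control and -2.22, -2.68 and -2.77 in severe asthma on the log2 scale, a difference of -0.61 (interval -0.97 to -0.25, adjusted p = 0.036). On the deposited scale the call was lost with the replicate number as a block (adjusted p = 0.0676), without control 2 (0.112), control 3 (0.103), severe asthma 2 (0.154) or severe asthma 3 (0.153). It held with edgeR and TMM factors (0.0393), with DESeq2 (0.00249) and with limma-voom (0.043). Across the alternatives the Cd274 call was lost in 7 of 20. Endothelial and epithelial cells can also carry PD-L1 and their markers were lower in severe asthma (14638 to 39427 against 5143 to 7671 for endothelium), and their part in the fall was not tested.

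The gene next to Cd274 on the chromosome is Pdcd1lg2, 22823 bases away, which encodes the other PD-1 ligand, PD-L2. It held 400.4 ± 30.9 and 329.9 ± 31.7 (SD, n = 3) in control and severe asthma and did not pass (log2 fold change -0.28, adjusted p = 0.0869). It was singled out for this position after its values were seen. The annotated span of Cd274 overlaps with Plgrkt, a plasminogen receptor gene of the opposite strand, and no source states that strand was used in counting. Plgrkt itself showed a log2 fold change of -0.094 (adjusted p = 0.648). The 3 Cd274 transcripts changed by -0.42 to -0.40. Icosl, Tnfsf9, Cd70, Cd44 and Cd274 also overlap with uncharacterised or small RNA genes of the annotation, whose reads could be counted with theirs.

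The promoters of Icosl, Cd274 and Cd44 are shown to set genes that rose beside the gene that fell, and were searched for patterns of NF-κB, which CD40 and LPS both activate. They are the windows that the RefSeq table (GRCm38.p6, the build mm10) gives, from 250 bases before to 50 bases after an annotated start, and the other 7 genes have no window there. The Cd274 window belongs to a start inside the annotated span of the gene. Capitals mark a loose NF-κB pattern on either strand, GGG and CC with 5 bases of any kind between them.
Icosl (chr10:78069118-78069417, plus strand): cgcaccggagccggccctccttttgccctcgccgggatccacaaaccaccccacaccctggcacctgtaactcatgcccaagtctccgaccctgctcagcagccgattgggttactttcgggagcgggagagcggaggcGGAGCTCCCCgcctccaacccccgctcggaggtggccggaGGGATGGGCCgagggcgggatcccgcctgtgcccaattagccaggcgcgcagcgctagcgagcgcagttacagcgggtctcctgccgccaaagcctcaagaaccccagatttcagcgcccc
Cd274 (chr19:29367188-29367487, plus strand): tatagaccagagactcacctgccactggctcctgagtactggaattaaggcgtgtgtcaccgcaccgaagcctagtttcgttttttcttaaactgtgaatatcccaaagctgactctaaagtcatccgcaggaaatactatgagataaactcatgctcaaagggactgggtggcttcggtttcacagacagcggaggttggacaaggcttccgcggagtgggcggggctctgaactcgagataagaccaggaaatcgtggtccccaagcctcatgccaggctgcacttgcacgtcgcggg
Cd44 (chr2:102901616-102901915, minus strand): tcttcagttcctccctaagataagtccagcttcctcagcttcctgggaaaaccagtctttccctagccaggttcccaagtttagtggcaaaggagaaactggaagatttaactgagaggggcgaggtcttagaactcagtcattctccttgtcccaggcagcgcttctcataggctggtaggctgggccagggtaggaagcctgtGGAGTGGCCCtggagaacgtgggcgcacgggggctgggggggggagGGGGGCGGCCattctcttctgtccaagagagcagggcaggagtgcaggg
The pattern occurred 2 times in the Icosl window, 2 times in the Cd44 window and 0 times in the Cd274 window. It is present in 50.8% of the 32851 windows of the table, and a link between the pattern and the changes of the genes was not tested. Neither the AP-1 pattern TGANTCA nor the STAT pattern TTCNNNGAA, present in 7.81% and 8.3% of windows, occurred in any of the 3.

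The TNF-family ligands were rare. Tnfsf4, encoding OX40L (mm10 chromosome 1, 161395438 to 161418206, plus strand), was represented by 0, 0 and 1 reads in controls 1 to 3 and by 5, 6 and 3 reads in severe asthma 1 to 3, deposited as adjusted values of 0, 0.0000174 and 0.938 and 5.22, 6.36 and 2.97. All 3 severe asthma libraries lay above the controls, yet the groups rest on 1 read and 14 reads. The ratio per read sequenced was 13.5, with an exact 95% binomial interval of 2.06 to 572 that covers counting error only. On the log2(value + 1) scale the change passed (log2 fold change 2.18 with an SE of 0.556, adjusted p = 0.02). On the deposited scale the call was lost without severe asthma 1 (adjusted p = 0.0565) or 2 (0.0815) and without both libraries numbered 1 (0.0721). With all 6 libraries it was lost relative to B cell genes (0.0532) and with no filter on low values (0.0544). It passed the filter of a mean value of at least 1 through the severe asthma libraries alone, so a difference was built into its being tested. Tnfsf4 is the only one of the 10 in the authors' deposited table of changed genes, where its log2 fold change is 3.43 and its q-value 0.0349. Macrophages and dendritic cells can make OX40L too. Macrophage markers were higher and conventional dendritic cell markers mixed in the same libraries, and the part of those cells in this change was not tested.

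Cd70, the ligand of CD27 (mm10 chromosome 17, 57145997 to 57149777, minus strand), had 0 reads in each control library and 2, 1 and 3 reads in severe asthma 1 to 3. With 3 reads put in place of 0 for the control group, the ratio per read sequenced was 1.93. That ratio leaves out the counting error of the 6 severe asthma reads and is no lower bound. Cd70 did not pass on the log2(value + 1) scale (adjusted p = 0.0577). Like Tnfsf4, it entered the test through severe asthma alone. Cd27, its receptor, which B cells and T cells of the mouse can carry, fell from 156, 143 and 178 to 109.7, 94.9 and 100.2 (log2 fold change -0.64, adjusted p = 0.0228). Cd27 did not pass without control 3 (0.0834), severe asthma 2 (0.0852) or severe asthma 3 (0.0816).

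Tnfsf9, encoding 4-1BBL (mm10 chromosome 17, 57105287 to 57107758, plus strand), held 43.3, 28.0 and 30.3 in control and 68.9, 84.1 and 35.7 in severe asthma. Severe asthma 1 and 2 lay above every control, and severe asthma 3 lay among them. The change did not pass (log2 fold change 0.81 with an SE of 0.379, adjusted p = 0.13, interval -0.061 to 1.69). Tnfsf9 and Cd70 are neighbours on chromosome 17, 38238 bases apart, and Tnfsf14, encoding LIGHT, follows 39696 bases beyond Cd70. Tnfsf18, encoding the GITR ligand, lies 76450 bases beyond Tnfsf4. Both neighbours, singled out for their position after their values were seen, were rare and did not pass. Tnfsf14 held 10.9 ± 4.88 and 15.1 ± 2.07 (SD, n = 3) in control and severe asthma (log2 fold change 0.52, adjusted p = 0.391). Tnfsf18 held 2.59 ± 1.22 and 9.59 ± 6.76 (1.32, adjusted p = 0.165).

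Cd83, an immunoglobulin-family protein that keeps CD86 and MHC class II on the surface by opposing the ubiquitin ligase MARCH1 (mm10 chromosome 13, 43785112 to 43803133, plus strand), was the most abundant of the 10. It held 12503, 14220.1 and 13349.7 in control and 13740.2, 12440.2 and 10783 in severe asthma, with overlapping groups. Its change did not pass, and the interval of -0.36 to 0.12 on the log2 scale bounds it (log2 fold change -0.12 with an SE of 0.103, adjusted p = 0.392). Relative to B cell genes the difference was -0.33 (interval -0.65 to -0.0029, adjusted p = 0.144), and without both libraries numbered 1 it was -0.25 (adjusted p = 0.0455). Marchf1, singled out after its values were seen, held 3502 ± 328 and 3279.6 ± 222 (SD, n = 3) in control and severe asthma and did not pass either (log2 fold change -0.093, adjusted p = 0.452).

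Cd69, a C-type lectin that appears within hours of activation and holds the egress receptor S1PR1 inside the cell (mm10 chromosome 6, 129267324 to 129275375, minus strand), held 3584, 3621 and 2587 in control and 3473, 2762 and 2169.9 in severe asthma. Library 3 was the lowest of each group and the groups overlapped. No difference passed (log2 fold change -0.23 with an SE of 0.207, adjusted p = 0.428, interval -0.73 to 0.27), nor with the replicate number as a block (0.0572). The sum of 17 early response genes was also lowest in library 3 of each group, at 136784, 98544 and 79174 in controls 1 to 3 and 143442, 95975 and 74595 in severe asthma 1 to 3, which does not hold for each gene (Egr2 was lowest in control 2 among the controls). Jun, one of the 2 most abundant that did not pass, ran from 11918 to 30918 in control and from 14267 to 48742 in severe asthma. Of the 17, 2 rose and 0 fell. At an unadjusted p under 0.05 these counts were 4 and 0. Those that rose were Egr2, a transcription factor induced by antigen receptor signals (162 ± 32.9 to 569 ± 109, log2 fold change 1.81, adjusted p = 0.00107) as well as Ccl3, a chemokine that macrophages make as well (127 ± 19.9 to 387 ± 132, 1.56, adjusted p = 0.0049). S1pr1, singled out after its values were seen, held 6391 ± 773 and 4931 ± 957 (SD, n = 3) in control and severe asthma (log2 fold change -0.38, adjusted p = 0.0824).

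Cd44, the hyaluronan receptor that rises on antigen-experienced lymphocytes (mm10 chromosome 2, 102811141 to 102901669, minus strand), had the smallest adjusted p of the 10. It held 1763, 1813 and 2228 in control and 2992, 3245 and 3004 in severe asthma. The groups were well apart, and the 3 severe asthma libraries differed little from each other. This was a 1.60-fold rise in the mean ± SD over 3 libraries, from 1935 ± 255 to 3081 ± 143 (log2 fold change 0.68 with an SE of 0.0989, adjusted p = 0.00307, interval 0.45 to 0.91). The call held in 19 of 20 alternatives, with adjusted p from 1.58e-06 to 0.0526, and was lost relative to B cell genes (0.47, interval 0.16 to 0.79, adjusted p = 0.0526), where the groups still did not overlap. By an exact permutation test, two-sided, p was 0.1 for Cd44 as for Cd40, Icosl, Tnfsf4 and Cd70, which is the smallest value possible with 3 against 3 libraries. CD44 is carried by macrophages and T cells as well. The macrophage sums of severe asthma 1 to 3 were 108911, 220486 and 145697, beside Cd44 values of 2992, 3245 and 3004. Those of controls 1 to 3 were 26166.5, 13377 and 32239, beside Cd44 values of 1763, 1813 and 2228. The part of those cells in the rise was not tested.

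All 11 Cd44 transcripts in the table rose alike, by 0.67 to 0.70 on the log2 scale. They share most of their reads, since 10 of the 11 had mean values of 2425 to 2508 and 1 of 644, so inclusion of variable exons cannot be read from these values. Of 14 measured partners of CD69, CD83 and CD44, 3 rose and 4 fell, with a median log2 fold change of -0.24. Spp1, encoding osteopontin, a CD44 ligand and a product of macrophages, rose from 714, 327 and 508 to 2130.3, 4023 and 2499 (log2 fold change 2.50, adjusted p = 0.00774). Of the enzymes that make or cut hyaluronan, the main CD44 ligand, Hyal1, Hyal2 and Has1 fell, while Has2 (log2 fold change 0.38, adjusted p = 0.772) and Has3 (-0.54, 0.164) did not pass. Hyal1 did not pass either once any library but control 2 was left out (0.0624 to 0.157). Hyal1, Has2 and Has3 were singled out after their values were seen. Hyal2, a hyaluronidase, had means of 333 ± 173 and 89.1 ± 14.2 in control and severe asthma (log2 fold change -1.79, adjusted p = 0.00897). Has1, a hyaluronan synthase, had 41.3 ± 18.2 and 11.8 ± 5.21 (-1.74, adjusted p = 0.026), a call lost without control 3 (0.0562), severe asthma 2 (0.0561) or severe asthma 3 (0.087). Both were highest in control 1, as were the endothelial and fibroblast markers. Without control 1 both calls held (Hyal2 -1.39, adjusted p = 0.000709, and Has1 -1.41, adjusted p = 0.0423). The part of endothelial cells and fibroblasts in these falls was not tested. Rdx, encoding radixin, which ties CD44 to actin, fell (2616 ± 453 to 1882 ± 49.2, -0.46), though not without severe asthma 2 (0.0796) or severe asthma 3 (0.0708). Msn, encoding the related moesin and singled out after its values were seen, rose (20674 ± 1144 to 24550 ± 947, 0.25, adjusted p = 0.0391). Its call was lost without control 3 (0.088), severe asthma 1 (0.0832), severe asthma 2 (0.0904) or severe asthma 3 (0.146). Ezr, encoding the related ezrin, did not pass (0.034, adjusted p = 0.72), nor did Klf2 (0.16, adjusted p = 0.788), the transcription factor that drives S1pr1.

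The receptors on the T cell side were present at low levels. Of the 8, 0 rose and 1 fell (Cd27) with limma, against 0 and 2 at an unadjusted p under 0.05, and their summed value was 336 to 457 in control and 269.8 to 314 in severe asthma, while the 8 T cell markers had a median log2 fold change of -0.11, with 1 risen (Lck, from 486 ± 43.5 to 822 ± 79.5) and 0 fallen, 1 and 1 at an unadjusted p under 0.05 with limma. The summed T cell markers, 864 to 1256 in control and 1233 to 1453 in severe asthma, have Lck as their most abundant member. Likewise the most abundant of the 8 receptors is Cd27 (159 ± 17.5 in control, 101.6 ± 7.47 in severe asthma), which B cells can carry too. Cd28 held 65.9, 46.0 and 82.1 in control and 55.3, 37.4 and 55.6 in severe asthma. Ctla4 held 60.9, 53.0 and 88.5 in control and 82.4, 68.2 and 47.6 in severe asthma, and the groups overlapped for both genes. Cd40lg, the partner of CD40, ran from 4.54 to 8.00 in control and from 0.988 to 4.15 in severe asthma (log2 fold change -1.20, adjusted p = 0.11). Tnfrsf4, Tnfrsf9 and Pdcd1 stood at -0.10 to -0.059 on the log2 scale and did not pass.

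Among 16 further ligands and receptors of the antigen-presenting side, 1 rose and 1 fell, with a median log2 fold change of 0.062, against 0.063 for all genes. Cd48, a ligand of CD2 and 2B4, rose from 735, 1042 and 901 to 1232, 1399 and 1281 with no overlap (log2 fold change 0.56, adjusted p = 0.0138), and it was higher relative to B cell genes too (0.35, adjusted p = 0.0451). Its call was lost without severe asthma 2 (0.0679) or severe asthma 3 (0.0546). Vtcn1, the inhibitory B7 protein B7-H4, which epithelium makes, fell from 13.8, 18.0 and 8.16 to 5.18, 1.11 and 1.98 (log2 fold change -2.02, adjusted p = 0.026), which was lost without control 2 (0.0692), severe asthma 2 (0.093) or severe asthma 3 (0.0868). Lgals9 and Vsir, the most abundant that did not pass, had log2 fold changes of 0.15 and 0.25.

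**Figure D4:**
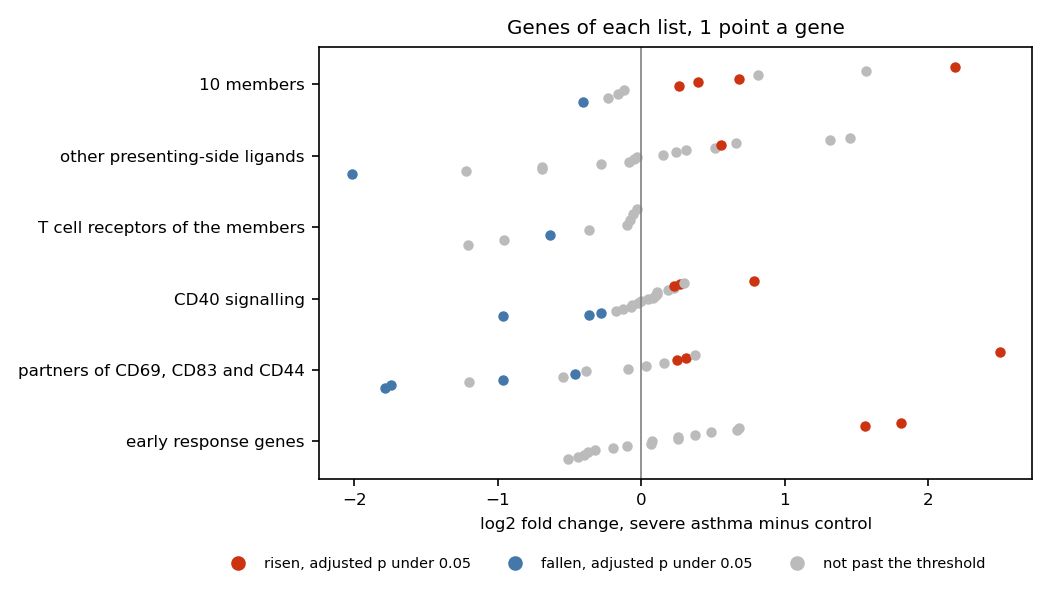
Log2 fold change of each gene of 6 lists, severe asthma minus control, 1 point a gene, red where it rose and blue where it fell (limma adjusted p under 0.05) and grey otherwise. The 10 genes have a median of 0.33, with Tnfsf4 and Cd70 included, which met the minimum mean value through severe asthma alone. The median is 0.065 for the CD40 signalling genes and -0.23 for the T cell receptors.

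In the authors' deposited table of all transcripts, the transcripts used here have a q-value under 0.05 for Cd40 (0.0413), Tnfsf4 (0.0237), Cd274 (0.0278) and Cd44 (4.62e-06), which is 4 of 10 against 27.6% of the genes tested here. The 10 include Tnfsf4 and Cd70, which met the minimum mean value through severe asthma alone. Icosl has a q-value of 0.0848 in the authors' deposited table.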

How the data were processed

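RNA of B220-selected lung cells was measured in 3 control and 3 severe asthma libraries, made from polyadenylated RNA (NEBNext Ultra, per the labels' protocols). Tools and build are named without role or order in the submitters' processing notes (bcl2fastq, HISAT2 2.1.0, HTSeq 0.11.2, mm10). The deposited value of each transcript is a library-size-adjusted signal, whose method no header gives. Beside it stand log2 fold changes, p-values and q-values made by the authors, per the file headers, with a test that is not given in the sources used here. Whole reads were rebuilt from the mRNA values by inverting edgeR's quantile adjustment (dispersion 0.0474), which returned 100% of the 429494 values above 0 within 0.001.

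As the values are not whole counts, the main test was two-sided limma-trend (3.58.1, R 4.3.3, robust empirical Bayes) on log2(value + 1) for the 15759 of 21774 genes whose mean value reached 1. This scale understates fold changes of low genes. Limma-voom, edgeR 4.0.16 and DESeq2 1.42.0 on the rebuilt reads were alternatives. The scripts were tested on simulated data. Same-numbered libraries of the groups deviated together across genes (correlations of 0.414, 0.128 and 0.140), and the number was also fitted as a block. Control 2 with severe asthma 3 (0.179) and control 3 with severe asthma 2 (0.200) correlated more than same-numbered libraries 2 and 3 did. Only the pairing of the libraries numbered 1 thus stands out in the data, and the labels give the numbers only. The 10 genes, the lists and the tests were chosen with earlier results of these data known. Other named genes are the 8 T cell receptors and, of each list, up to 4 that passed with the smallest p and up to 2 of the highest mean that did not, or up to 3 of the highest mean of a marker list. Trac was not matched by symbol, and March1 was matched as Marchf1.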

Additional observations from a re-analysis of the deposited data

How the results depend on the processing

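All 10 fold changes kept their sign under every alternative that gave a value. Of the 10 genes, 4 rose and 1 fell. With no filter on low values 1 rose and 0 fell with limma (4 and 1 at an unadjusted p under 0.05, over all genes 1312 and 387, against 3262 and 2263). With scaling by total reads alone 2 of the 10 rose (1920 of all genes), and relative to B cell genes 0 rose with limma (3 at an unadjusted p under 0.05, 904 of all genes). With edgeR and RLE factors 2 rose (2365 of 15759 genes). With DESeq2 2 rose (2484 of 14534 genes), where Tnfsf4 and Cd70 had no adjusted p. With a minimum mean of 10 neither of them was tested. With the values summed over transcripts 0 fell with limma (1 at an unadjusted p under 0.05, 2095 of 16243 genes). Without both libraries numbered 1 the number that fell was 3 (Cd274, Cd86 and Cd83), beside 2632 of 15628 genes. With the replicate number as a block 4 rose and 0 fell with limma (6 and 2 at an unadjusted p under 0.05, over all genes 3528 and 2714). The block ended the call of Cd274 and changed no other of the 10. Leaving out 1 library at a time gave 1 to 4 risen and 0 to 2 fallen of the 10, and 1575 to 3401 risen and 728 to 2335 fallen of all genes. The lowest counts over all genes came without severe asthma 2 (1575 and 728) and severe asthma 3 (1627 and 782). The share of higher calls over all genes was 59.0%, but 38.2% by total reads and 35.0% relative to B cell genes. On these scales the all-gene median of the log2 fold changes moved from 0.063 to -0.083 and -0.14. Apart from the gene filter and the left-out libraries, which change what is tested, the cause of these shifts was not tested. Cd70 passed with a pseudocount of 0.5 (adjusted p = 0.0476), with non-robust empirical Bayes (0.0386) and with limma-voom (0.0491). Depth limits Tnfsf4 and Cd70, which rest on 1 and 14 reads and on 0 and 6 reads per group.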

Other observations

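Ratios of 2 genes within a library do not depend on a factor that scales the whole library. The ratios below were chosen after the values were seen and are ratios of adjusted read counts, not per length. The ratio of Icosl to Cd274 was 1.19, 1.10 and 1.14 in controls 1 to 3 and 1.47, 2.04 and 2.01 in severe asthma 1 to 3, and that of Cd40 to Cd274 was 0.414, 0.470 and 0.478 and 0.611, 0.934 and 0.865. The groups did not overlap in either ratio, and two-sided exact permutation tests gave p = 0.1, the smallest that 3 against 3 libraries allow. Both ratios set a gene called risen over the gene called fallen, so their separation was largely built into the choice. The p-values therefore add no support to the calls. The ratio of Cd86 to Cd274 overlapped (0.192 to 0.272 in control, 0.209 to 0.302 in severe asthma, exact permutation p = 0.3). A ratio shows unequal change and not which of its genes moved.

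In the authors' deposited term tables, Tnfsf4 is the only one of the 10 genes in any term, and it rests on 14 reads in severe asthma and 1 in control. The terms list genes that the authors called changed, and Tnfsf4 is the only one of the 10 among those. That outcome was thus fixed and says nothing of the other genes. Of the 257 biological process terms that hold Tnfsf4, 123 have a q-value under 0.05. The term for T cell costimulation holds 5 of the authors' changed genes, with a q-value of 0.345 in the authors' deposited table, and that for T cell activation 83, with a q-value of 0.000493.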
